A study of Arabidopsis thaliana with 24 samples.

Results

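The comparison described here is that of jasmonate-insensitive coi1 leaves with wild-type leaves at the moment of detachment, before any culture. It rests on 3 of the 24 libraries of a time course of root regeneration from cut leaves of Arabidopsis thaliana: coi1 t0 replicates 1 and 2, and the 1 wild-type (WT) t0 library, chosen by genotype and time label, with all genes measured. The coi1 plants carried the coi1-2 allele, and the WT plants were Col-0. Both genotypes were grown from seed for 12 d at 22 °C in a cycle of 16 h light and 8 h dark on half-strength MS medium holding 1% sucrose. Blades of the first rosette leaf pair were cut from the petiole and, at t0, frozen whole without culture. The other 21 libraries came from the same kind of blade kept under continuous light on B5 medium free of sucrose, and are used here only to ask whether a difference seen at t0 was also present at 7 later times, from 10 min to 12 h. The model is limited to 1 mutant allele, and neither the number of plants per library nor the hour of harvest is given in the sources used here. Nothing states that the 2 coi1 libraries were separate cultures, so their spread may be technical.

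COI1 is the F-box protein of the jasmonate receptor. When it binds jasmonoyl-isoleucine it marks JAZ repressor proteins for degradation, which frees MYC transcription factors to switch on defence genes, and those for jasmonate synthesis itself. In leaves this pathway is best known for the response to wounding and to chewing insects, and for the stores of glucosinolates, sulfur compounds that myrosinase enzymes split into toxic products.

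Values are TPM, transcript abundances per unit of length that add up to the same sum in every library. They keep no record of read depth, so no counting interval is given. The 2 genotypes came from separate tables, whose columns were each scaled on their own. In the t0 libraries, 17743 and 17348 genes reached 1 TPM in coi1, against 17629 in WT. Differences are given as log2(TPM + 1) of coi1 minus WT, which understates the change of low genes, and the 19757 genes that reached 1 TPM in 2 or more of the 24 libraries were tested. As a whole blade was sampled, fewer cells of a type and less RNA per cell cannot be told apart. Leaf markers were abundant: RBCS1A, a Rubisco small subunit, stood at 20270 and 22596 TPM in coi1 and at 25209 TPM in WT. The 4 shoot meristem genes summed to 0 TPM in both coi1 libraries and to 0.17 TPM in WT, and 5 of 7 root tissue genes were below 1 TPM in all 3 libraries.

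With a single WT library, each gene was described first by its values. A gene was called 2-fold different when both coi1 libraries lay at least 1 log2 unit from WT on the same side. By this rule 134 genes were higher in coi1, 0.678% of those tested, and 375 were lower, 1.90%. A limma fit of 16 genotype-by-time groups, whose spread came from the 8 coi1 pairs and was assumed to hold for the lone WT library, called 8 genes higher (0.0405%) and 80 lower (0.405%) at an adjusted p below 0.05. Both rules were met by 7 genes that were higher (0.0354%) and by 75 that were lower (0.380%). The counts by fold depended on which coi1 library was used: replicate 2 alone gave 299 higher and 949 lower, and replicate 1 alone 1077 higher and 660 lower. The limma counts were 6 higher and 63 lower without replicate 1, and 100 higher and 92 lower without replicate 2.

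**Figure D1:**
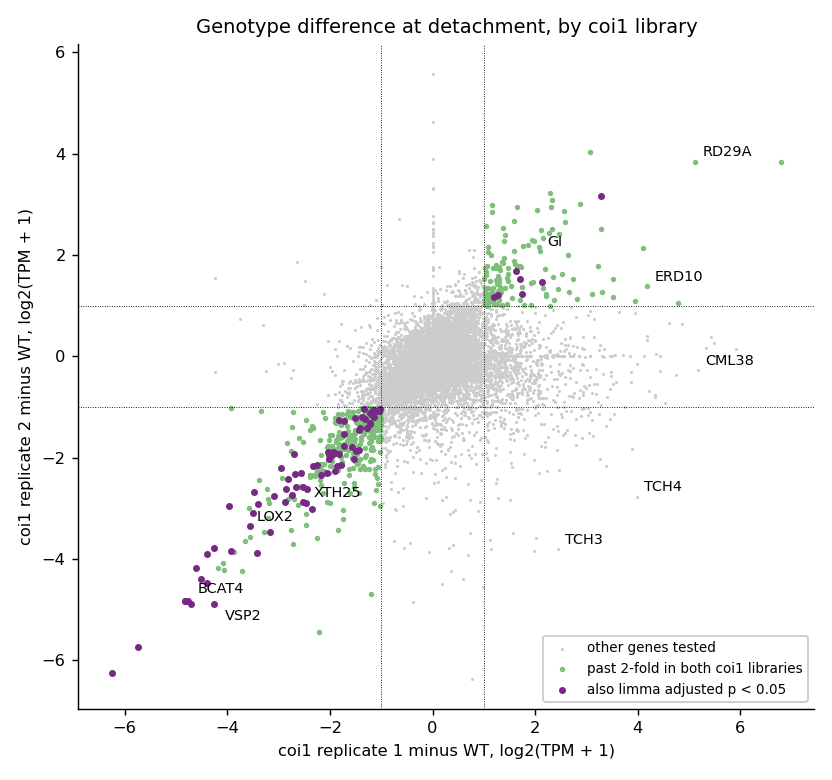
Each point is a gene tested at detachment, with the difference of coi1 replicate 1 from WT on the horizontal axis and of coi1 replicate 2 from WT on the vertical axis, both in log2(TPM + 1) units; dotted lines mark 2-fold. Genes at least 2-fold lower in both libraries (375) outnumber those at least 2-fold higher (134). TCH3 and TCH4 lie at the lower right, above WT in replicate 1 and below it in replicate 2. CML38 lies at the right, with a difference of 5.17 in replicate 1 and −0.27 in replicate 2.

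The 2 coi1 t0 libraries stood apart in genes of touch and wounding. Between them 1443 genes were at least 2-fold higher in replicate 1 (7.30%) and 239 were at least 2-fold higher in replicate 2 (1.21%). Their root mean square difference was 0.691 log2 units, larger than at 10 min (0.362) and from 1 h on (0.319 to 0.501), and smaller than at 30 min (1.039). WT lay nearer to replicate 2 than to replicate 1 for 1017 of the 1443 genes, or 70.5%.

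The 14 touch genes encode calcium-binding proteins and wall enzymes induced by bending or handling. Of them, 10 were at least 2-fold higher in coi1 replicate 1 than in replicate 2 (7.30% of all genes). TCH4, a xyloglucan endotransglucosylase, had 578 and 4.37 TPM in coi1, against 35.6 TPM in WT. TCH3, a calmodulin-like protein, had 1393 and 17.2 TPM in coi1 and 254 TPM in WT. CML38, another calmodulin-like gene, had 91.4 and 1.13 TPM in coi1 and 1.57 TPM in WT. For the first pair WT fell between the coi1 libraries, and for CML38 it lay beside replicate 2. The list median was 2.03 for replicate 1 and −1.16 for replicate 2, so no direction by genotype could be given, and the mean differences of TCH4 (0.61 ± 1.92, SE; limma adjusted p = 0.987) and TCH3 (−0.68 ± 1.79; limma adjusted p = 0.98) had errors wider than themselves.

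The rapid wound and stress transcription factors parted the libraries in the same way. Of 31 members, 22 were at least 2-fold higher in coi1 replicate 1 than in replicate 2 (7.30% of all genes). The list medians were 2.49 for replicate 1 and −0.56 for replicate 2. In both coi1 libraries 3 of the 31 were at least 2-fold higher than WT (0.678% of all genes) and 1 was lower (1.90%). In this list limma called 0 members between the genotypes. At an unadjusted p below 0.05 there were 2, against 1608 of all 19757 genes. WRKY40 had 75.3 and 0.47 TPM in coi1 and 4.19 TPM in WT. ERF105 had 53.4 TPM in coi1 replicate 1 and was listed at 0 in replicate 2 and in WT. ERF109, a wound-induced factor, was at 0.67 TPM in coi1 replicate 1, listed at 0 in replicate 2 and at 0.03 TPM in WT. Outside the lists, FBS1, an F-box gene, had 108 and 1.01 TPM in coi1 and 0.81 TPM in WT, and AT2G24600, an ankyrin repeat gene, had 133 and 0.69 TPM in coi1 and 18.5 TPM in WT. The genes most in excess in replicate 2 were fewer and lower. AT1G23390, a Kelch repeat F-box gene, had 21.6 and 89.2 TPM in coi1 and 43.5 TPM in WT, and DIR1, a lipid-transfer protein of systemic resistance, had 2.14 and 13.6 TPM in coi1 and 6.26 TPM in WT.

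**Figure D2:**
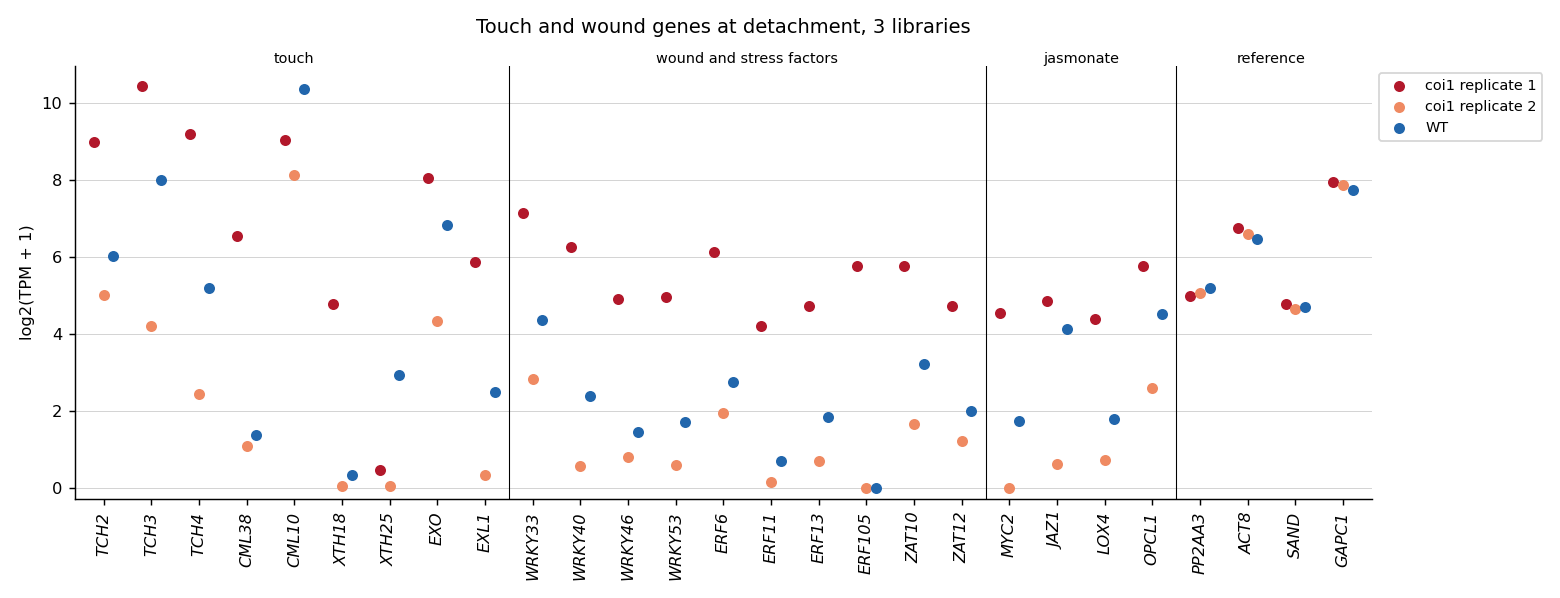
Levels in log2(TPM + 1) of touch genes, wound and stress transcription factors, jasmonate genes that parted the coi1 libraries, and reference genes in coi1 replicate 1, coi1 replicate 2 and WT at detachment. Replicate 1 lies far above the other 2 libraries for most touch and wound genes, whereas CML10 is highest in WT and the 4 reference genes shown lie close together.

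XTH25 and CML10 were the touch genes that were lower in both coi1 libraries. XTH25, a xyloglucan endotransglucosylase, had 0.38 and 0.03 TPM in coi1 and 6.61 TPM in WT, and fell by 2.67 ± 0.25 (SE) on the log2 scale in coi1 (limma adjusted p = 0.000886). CML10, a calmodulin-like gene, had 523 and 280 TPM in coi1 and 1308 TPM in WT, a difference that did not pass limma (−1.77 ± 0.57; adjusted p = 0.357).

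The COI1 transcript itself, AT2G39940, stood at 14.5 and 14.3 TPM in coi1 and at 15.4 TPM in WT. The difference was −0.09 ± 0.14 (SE; limma adjusted p = 0.948), so this level neither separated the genotypes nor checked the label. The SCF partners of COI1 were also close: ASK1 had 178 and 174 TPM in coi1 and 172 TPM in WT, and CUL1 had 65.8 and 64.6 TPM in coi1 and 68.1 TPM in WT.

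Jasmonate genes were lower in coi1 before any culture. Of 68 members of 5 jasmonate lists, 65 passed the filter on low values; 17 of these were at least 2-fold lower in both coi1 libraries (26.2%, against 1.90% of all genes) and 0 were higher. The limma fit called 7 of the 65 lower (10.8%, against 0.405%). From replicate 1 or replicate 2 alone, 21 members were at least 2-fold lower in either case, and replicate 1 alone also gave 6 that were higher. The limma count was 6 without replicate 1 and 7 without replicate 2.

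In the synthesis pathway, 5 of 14 measured genes were at least 2-fold lower (1.90% of all genes) and 3 were called by limma (0.405%). LOX2, the chloroplast lipoxygenase that starts the pathway, had 53.3 and 61.7 TPM in coi1 and 639 TPM in WT, a difference of −3.46 ± 0.61 (SE; limma adjusted p = 0.0492) whose call was lost in 6 of the 10 alternatives. AOS, allene oxide synthase, had 46.2 and 35.1 TPM in coi1 and 131 TPM in WT (−1.68 ± 0.23; limma adjusted p = 0.0123). AOC1, an allene oxide cyclase, had 0.75 and 0.41 TPM in coi1 and 14.7 TPM in WT (−3.32 ± 0.41; limma adjusted p = 0.00665). In each of these genes the coi1 libraries lay together, well below WT.

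The next steps differed by size but missed the test. AOC2, a neighbouring cyclase copy whose reads may be shared with AOC1, had 89.9 and 105 TPM in coi1 and 410 TPM in WT (limma adjusted p = 0.713). OPR3, the peroxisomal reductase, had 18.3 and 9.95 TPM in coi1 and 43.3 TPM in WT (limma adjusted p = 0.656). Other synthesis genes followed the split between the coi1 libraries instead: LOX4 had 19.8 and 0.63 TPM in coi1 and 2.43 TPM in WT, and OPCL1, which activates the acid precursor, had 52.7 and 4.98 TPM in coi1 and 22.0 TPM in WT. JAR1, which joins jasmonate to isoleucine, had 89.0 and 40.6 TPM in coi1 and 42.3 TPM in WT.

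Among the JAZ repressors, 3 of 12 measured members were at least 2-fold lower (1.90% of all genes) and 2 were called (0.405%). JAZ6 had 7.37 and 6.49 TPM in coi1 and 36.8 TPM in WT (−2.26 ± 0.25, SE; limma adjusted p = 0.00303). JAZ3 had 2.62 and 2.84 TPM in coi1 and 13.3 TPM in WT (−1.94 ± 0.25; limma adjusted p = 0.00947). JAZ9 had 2.37 and 1.99 TPM in coi1 and 31.8 TPM in WT, and was not called (limma adjusted p = 0.106). JAZ1 went with the wound genes, at 27.6 and 0.54 TPM in coi1 and 16.3 TPM in WT.

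The MYC factors that the JAZ proteins hold back were less apart. MYC2 had 22.1 TPM in coi1 replicate 1, was listed at 0 in replicate 2 and had 2.33 TPM in WT, so its genotypes overlapped. MYC3 had 23.7 and 27.1 TPM in coi1 and 38.9 TPM in WT, and MYC4 had 5.09 and 6.67 TPM in coi1 and 11.8 TPM in WT. MYC5 was the 1 member of the 14 receptor and transcription factor genes that was at least 2-fold lower (1.90% of all genes). It had 0.37 and 0.39 TPM in coi1 and 2.28 TPM in WT (limma adjusted p = 0.0983).

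Of the 16 jasmonate output genes, 7 were at least 2-fold lower (1.90% of all genes) and 2 were called (0.405%). VSP2, a vegetative storage protein with phosphatase activity that is the usual reporter of the pathway in leaves, had 1.36 and 0.52 TPM in coi1 and 43.8 TPM in WT (−4.56 ± 0.39, SE; limma adjusted p = 0.000628). JAL35, a jacalin-related lectin, had 8.22 and 8.62 TPM in coi1 and 34.3 TPM in WT (−1.91 ± 0.20; limma adjusted p = 0.00216). The coi1 libraries lay close together for the lectin and were both near 0 for VSP2. Its neighbour VSP1, a near-identical copy with which reads may be shared, had 0.27 and 0.26 TPM in coi1 and 6.56 TPM in WT (limma adjusted p = 0.0593). CORI3, a cystine lyase, had 6.98 and 6.25 TPM in coi1 and 133 TPM in WT, the widest gap among the output genes apart from VSP2, but the spread of its coi1 pairs at other times was wide (−4.14 ± 1.07; limma adjusted p = 0.206). ARGAH2, an arginase, had 2.94 and 3.79 TPM in coi1 and 34.8 TPM in WT (limma adjusted p = 0.555), and CLH1, a chlorophyllase, had 11.0 and 25.1 TPM in coi1 and 84.1 TPM in WT (limma adjusted p = 0.182).

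**Figure D3:**
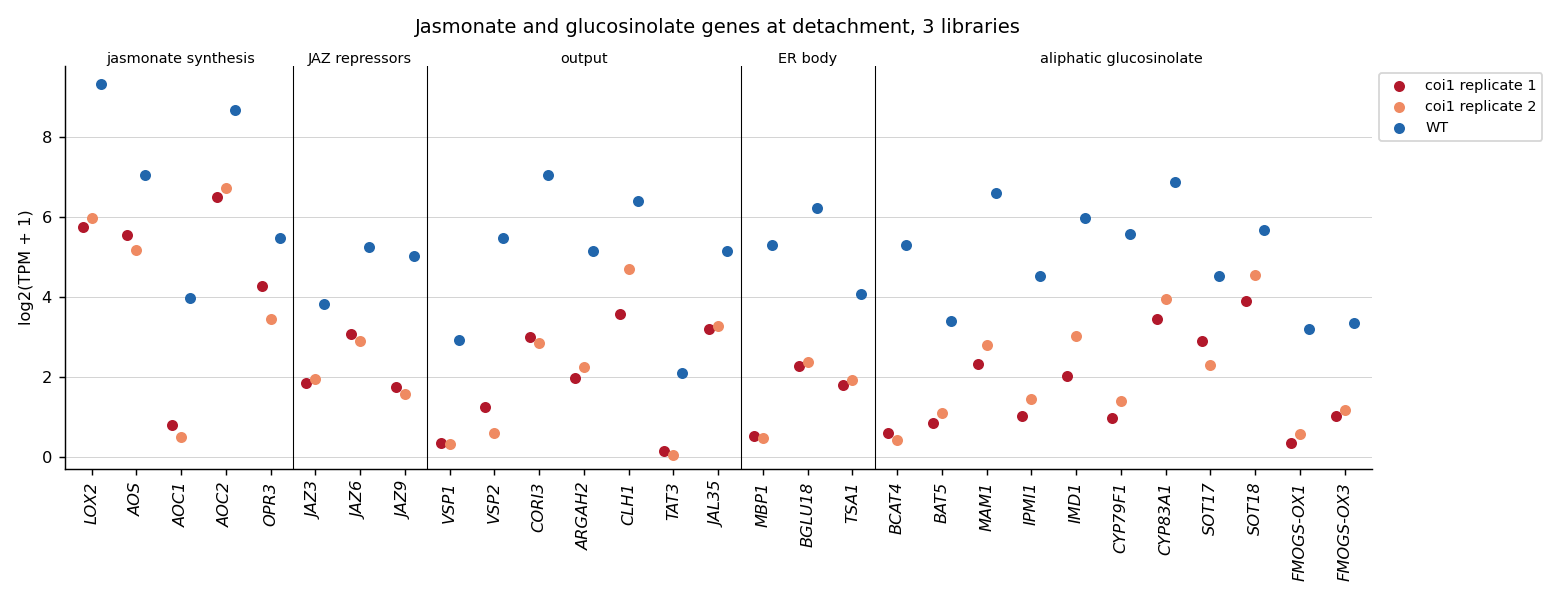
Levels in log2(TPM + 1) at detachment for genes of jasmonate synthesis, JAZ repressors, jasmonate output, the ER body and the aliphatic glucosinolate pathway in coi1 replicate 1, coi1 replicate 2 and WT. For every gene shown both coi1 libraries lie below WT, for example VSP2 at 1.36 and 0.52 TPM against 43.8 TPM.

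Other jasmonate genes were all but silent in both genotypes at t0. Of the 65 members, 19 were below 1 TPM in all 3 t0 libraries, and 13 of these were lower in coi1 over the 7 later times by an additive limma fit of genotype and time on the 21 later libraries. Of all genes tested, 1354 were as low at t0, and the fit called 134 of these lower later (9.90%). A contrast of the t0 difference with the mean difference at the later times, chosen after the data had been seen, was called by limma for 93 genes whose coi1 minus WT difference was higher at t0 than later (0.471%) and for 54 whose difference was lower at t0 (0.273%). It was called for 13 of these 19 genes, but a level below 1 TPM in every t0 library fixes the t0 difference near 0, and such a gene passed the filter only through later libraries, so the count is a description. JAZ7 had 0.06 TPM in coi1 replicate 1, was listed at 0 in replicate 2 and had 0.13 TPM in WT at t0, and stood at 1.31 and 0.56 TPM in coi1 and 200 TPM in WT at 30 min. JAZ10, just above the limit, had 1.32 and 1.86 TPM in coi1 and 1.70 TPM in WT at t0, and 4.18 and 6.90 TPM in coi1 and 311 TPM in WT at 1 h. Of the 10 genes of jasmonate turnover, 7 were below 1 TPM in all 3 t0 libraries. ILL6 and IAR3 were above 1 TPM in each, and JOX2 was already at least 2-fold lower in coi1. Among the low ones, JOX3, which hydroxylates jasmonic acid, was listed at 0 in both coi1 libraries and had 0.15 TPM in WT at t0. At 1 h JOX3 had 0.05 and 0.17 TPM in coi1 and 33.1 TPM in WT. NATA1, an acetyltransferase of defence, had 0.00 and 0.04 TPM in coi1 and 0.04 TPM in WT at t0, and at 4 h it had 0.07 and 0.04 TPM in coi1 and 31.0 TPM in WT.

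**Figure D4:**
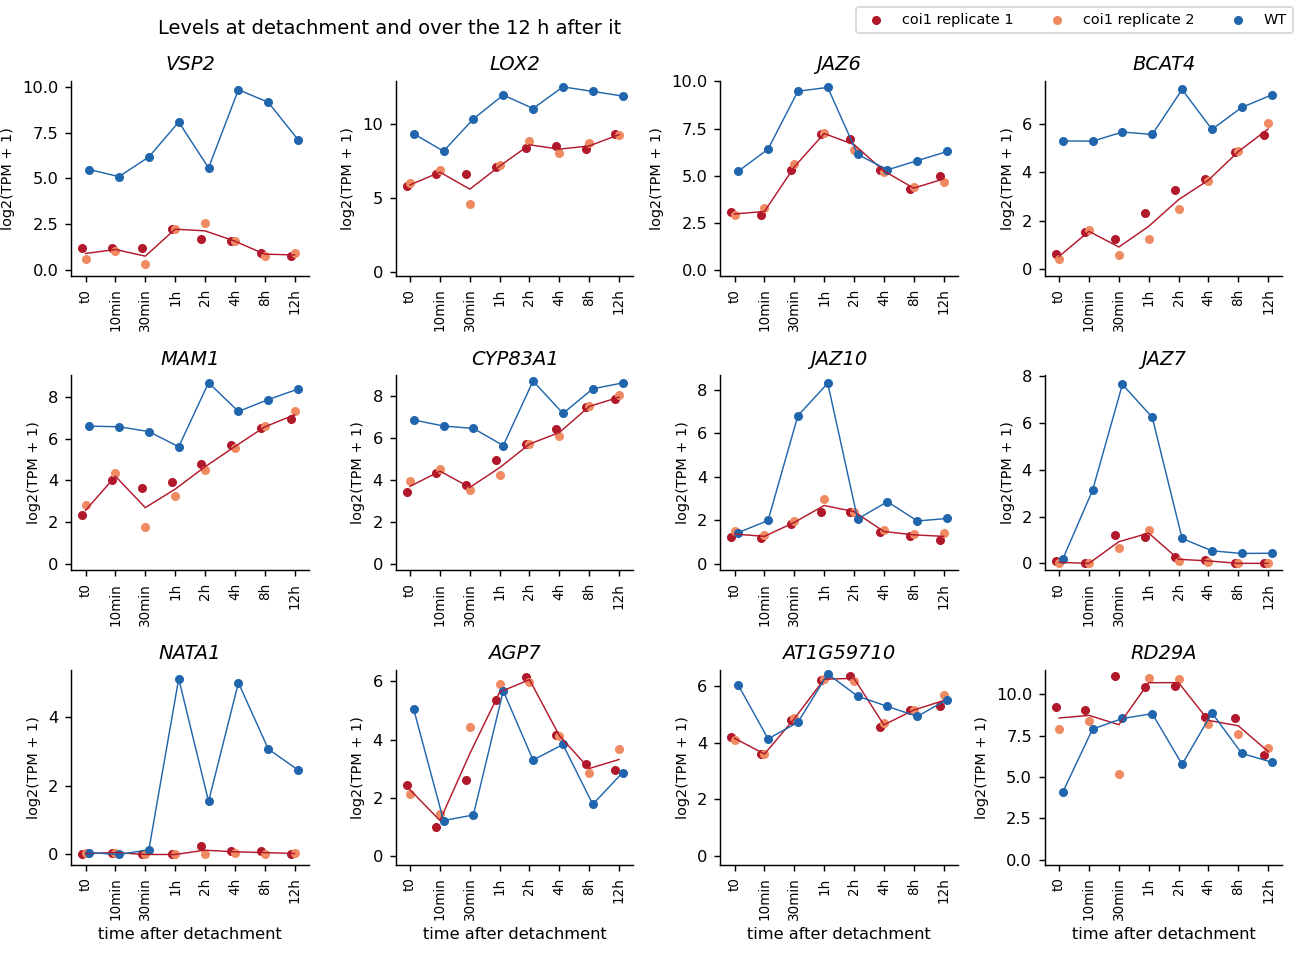
Levels in log2(TPM + 1) of 12 genes at t0 and at the 7 later times; points are libraries, the red line joins the means of the coi1 pairs and the blue line the single WT libraries. VSP2 is lower in coi1 at all 8 times, JAZ7, JAZ10 and NATA1 lie together at t0 and apart later, and AGP7 and AT1G59710 lie further below WT at t0 than on average later.

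The ER body and myrosinase system gave differences in both directions. Of 17 measured genes, 3 were at least 2-fold lower (1.90% of all genes) and called (0.405%), and 2 were at least 2-fold higher (0.678%) without a call. MBP1, a myrosinase-binding protein, had 0.45 and 0.39 TPM in coi1 and 38.5 TPM in WT (−4.80 ± 0.20, SE; limma adjusted p = 1.64e-06), the smallest p of any gene named here at t0. BGLU18, the beta-glucosidase of ER bodies induced by wounding, had 3.88 and 4.22 TPM in coi1 and 73.6 TPM in WT (−3.89 ± 0.35; limma adjusted p = 0.000806). TSA1, which marks the same inducible ER bodies, had 2.50 and 2.77 TPM in coi1 and 15.7 TPM in WT (−2.20 ± 0.29; limma adjusted p = 0.00968). PYK10, the beta-glucosidase of the constitutive ER bodies of roots and seedlings, ran the other way with 21.9 and 19.4 TPM in coi1 and 8.97 TPM in WT (1.12 ± 0.24; limma adjusted p = 0.117). NAI2, needed to form those bodies, did so too, at 10.3 and 8.70 TPM in coi1 and 3.76 TPM in WT (limma adjusted p = 0.38). The myrosinase TGG1 differed by less than the error, at 3110 and 3621 TPM in coi1 and 3510 TPM in WT, and TGG2 had 359 and 405 TPM in coi1 and 689 TPM in WT (limma adjusted p = 0.286).

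The aliphatic glucosinolate pathway had the lowest median of the 42 lists with measured members. All 18 genes passed the filter and had a mean difference below 0; 12 were at least 2-fold lower in both coi1 libraries (1.90% of all genes) and limma called 10 (0.405%). The list median was −2.34, against −0.06 over all genes tested, with −2.44 for replicate 1 and −2.21 for replicate 2. The limma count was 5 without replicate 1 and 12 without replicate 2.

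The lower genes ran through the whole pathway. BCAT4, the aminotransferase that removes the amino group of methionine, had 0.52 and 0.34 TPM in coi1 and 38.7 TPM in WT (−4.80 ± 0.45, SE; limma adjusted p = 0.000983). MAM1, which lengthens the side chain and has a close copy in MAM3, had 4.05 and 5.97 TPM in coi1 and 95.5 TPM in WT (−4.02 ± 0.59; limma adjusted p = 0.0166). In both genes WT was far above the 2 coi1 libraries. The isomerase IPMI1 had 1.05 and 1.72 TPM in coi1 and 22.2 TPM in WT (limma adjusted p = 0.00496), and the dehydrogenase IMD1 had 3.04 and 7.19 TPM in coi1 and 62.2 TPM in WT (limma adjusted p = 0.0166). Outside the list, IPMI2, another isopropylmalate isomerase gene, had 1.01 and 1.85 TPM in coi1 and 41.4 TPM in WT (limma adjusted p = 0.00559).

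Core synthesis followed. CYP79F1, which makes the aldoxime from chain-lengthened methionine, had 0.95 and 1.64 TPM in coi1 and 46.7 TPM in WT (−4.40 ± 0.48, SE; limma adjusted p = 0.00277). CYP83A1, which oxidises that aldoxime, had 9.97 and 14.5 TPM in coi1 and 116 TPM in WT (−3.16 ± 0.28; limma adjusted p = 0.000764). GSTU20, a glutathione transferase outside the list, had 41.4 and 52.7 TPM in coi1 and 360 TPM in WT (−2.92 ± 0.26; limma adjusted p = 0.000764). The late sulfotransferases SOT17, at 6.50 and 3.94 TPM in coi1 and 22.1 TPM in WT, and SOT18, at 14.0 and 22.5 TPM in coi1 and 50.3 TPM in WT, were at least 2-fold lower but were not called (limma adjusted p = 0.165 and 0.105).

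The regulators MYB28 and MYB29 were nearer to WT in mean difference than the enzymes named above, though MYB29 was close to SOT18. MYB28 had 41.0 and 65.0 TPM in coi1 and 65.8 TPM in WT (limma adjusted p = 0.849), and MYB29 had 2.30 and 3.60 TPM in coi1 and 7.72 TPM in WT (limma adjusted p = 0.117). Whether enzymes and regulators differ in their response was not tested.

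In the indole branch, which starts from tryptophan, 5 of 15 measured genes were at least 2-fold lower (1.90% of all genes). Limma called 0, with 3 at an unadjusted p below 0.05 (1608 of all 19757 genes). CYP79B2 had 14.9 and 6.65 TPM in coi1 and 44.6 TPM in WT, CYP79B3 had 14.6 and 6.89 TPM in coi1 and 35.7 TPM in WT, and CYP83B1 had 54.6 and 41.4 TPM in coi1 and 156 TPM in WT. Their coi1 libraries did not reach WT, but 6 of the 15 were at least 2-fold higher in replicate 1 than in replicate 2 (7.30% of all genes). Among them was CYP81F2, at 31.6 and 0.43 TPM in coi1 and 3.35 TPM in WT.

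Promoter windows of 300 bases upstream of the RefSeq transcript start, build TAIR10.1, were read for the 7 jasmonate genes and 9 of the aliphatic glucosinolate genes that met both rules. MYC factors are known to bind the G-box CACGTG and the related CACATG. The 3 jasmonate windows that hold one of these are shown to let the letters be seen in place; capitals mark CACGTG or CACATG on either strand.
JAZ3: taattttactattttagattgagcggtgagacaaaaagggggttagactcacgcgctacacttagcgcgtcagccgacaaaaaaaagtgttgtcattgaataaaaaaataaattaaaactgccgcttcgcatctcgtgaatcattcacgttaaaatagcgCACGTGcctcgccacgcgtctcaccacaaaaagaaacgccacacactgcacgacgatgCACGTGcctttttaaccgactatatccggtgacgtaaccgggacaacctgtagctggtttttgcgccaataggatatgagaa
AOS: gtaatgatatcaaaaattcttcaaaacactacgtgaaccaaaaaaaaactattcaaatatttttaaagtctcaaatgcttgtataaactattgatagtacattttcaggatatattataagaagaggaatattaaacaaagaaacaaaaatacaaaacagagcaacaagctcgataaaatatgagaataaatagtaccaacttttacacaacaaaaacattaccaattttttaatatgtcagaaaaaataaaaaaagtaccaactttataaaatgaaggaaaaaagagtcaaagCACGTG
LOX2: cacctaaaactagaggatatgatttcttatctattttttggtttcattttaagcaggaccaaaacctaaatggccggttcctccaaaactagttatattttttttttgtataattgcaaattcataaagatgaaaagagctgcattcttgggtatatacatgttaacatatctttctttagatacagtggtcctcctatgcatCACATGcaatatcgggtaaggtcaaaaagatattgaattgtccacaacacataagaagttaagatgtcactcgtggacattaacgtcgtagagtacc

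These windows lie at chr3:6119407-6119706 on the plus strand (JAZ3), chr5:17099596-17099895 on the minus strand (AOS) and chr3:16524945-16525244 on the plus strand (LOX2). CACGTG, which reads the same on both strands, was in 2 of the 7 jasmonate windows and in 1 of the 9 glucosinolate windows, that of CYP83A1, against 7.09% of 27443 promoters of protein-coding genes. CACATG or its reverse complement was in 1 of 7 and 1 of 9 windows, against 13.0% of all promoters. GCCGCC, the site of ERF factors, was in 0 of 7 and 0 of 9, against 2.27%. These are counts of letters in a short window and carry no test.

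Genes that were higher in coi1 at t0 were fewer and only in part called. AT3G21460, a glutaredoxin, had 13.3 and 12.2 TPM in coi1 and 0.46 TPM in WT (3.23 ± 0.54, SE; limma adjusted p = 0.0356, a call lost in 6 of 10 alternatives). IAA1, an auxin-induced Aux/IAA repressor, had 22.5 and 15.5 TPM in coi1 and 5.99 TPM in WT (1.50 ± 0.25; limma adjusted p = 0.0356). TIL, a temperature-induced lipocalin, had 87.6 and 86.4 TPM in coi1 and 37.7 TPM in WT (1.19 ± 0.16; limma adjusted p = 0.0117). For TIL and the glutaredoxin the coi1 libraries lay close together. At later times the glutaredoxin difference did not pass (0.24 ± 0.22; limma adjusted p = 0.511).

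Of the 8 cold regulon genes, 4 were at least 2-fold higher in both coi1 libraries (0.678% of all genes) and 1 was lower (1.90%). Limma called 0, with 3 at an unadjusted p below 0.05 (1608 of all 19757 genes). RD29A, a drought and cold marker, had 587 and 240 TPM in coi1 and 15.9 TPM in WT (4.48 ± 1.71, SE; limma adjusted p = 0.482). The dehydrin COR47 had 632 and 230 TPM in coi1 and 66.2 TPM in WT (limma adjusted p = 0.516), and the dehydrin ERD10 had 1096 and 156 TPM in coi1 and 59.4 TPM in WT (limma adjusted p = 0.499). COR15A, a chloroplast protectant, ran the other way, with 440 and 513 TPM in coi1 and 1041 TPM in WT. The CBF factors that drive the regulon, tandem copies that may share reads, were also higher: CBF3 had 5.97 and 6.34 TPM in coi1 and 0.16 TPM in WT (limma adjusted p = 0.417), and CBF1 had 34.8 and 1.71 TPM in coi1 and 0.30 TPM in WT (limma adjusted p = 0.612). CBF1 and ERD10 were highest in coi1 replicate 1, the library high in touch and wound genes, and its part in their difference was not tested.

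Evening clock genes gave 4 of 10 members at least 2-fold higher (0.678% of all genes) and a list median of 0.83, with 0 called by limma and 0 at an unadjusted p below 0.05. GI, a clock protein of flowering control, had 24.1 and 23.7 TPM in coi1 and 4.86 TPM in WT (2.09 ± 0.98, SE; limma adjusted p = 0.643). PRR5 had 16.8 and 20.9 TPM in coi1 and 3.55 TPM in WT (limma adjusted p = 0.899), and the RNA-binding protein GRP7 had 4278 and 4523 TPM in coi1 and 1311 TPM in WT (limma adjusted p = 0.948). The morning genes PRR7, at 23.2 and 34.2 TPM in coi1 and 8.17 TPM in WT, and LNK1, at 9.02 and 10.7 TPM in coi1 and 2.30 TPM in WT, were also at least 2-fold higher. The coi1 libraries lay close together for all 5 genes, but such genes swing over the day and the hour of harvest of each library is not known, so genotype and hour cannot be told apart.

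Among 23 photosynthesis genes, 4 were at least 2-fold higher (0.678% of all genes), all for light-harvesting proteins. Limma called 0, with 4 at an unadjusted p below 0.05 (1608 of all 19757 genes). LHCB1.1, which has near-identical copies, had 601 and 1085 TPM in coi1 and 146 TPM in WT (limma adjusted p = 0.505), and LHCB2.1 had 279 and 508 TPM in coi1 and 126 TPM in WT (limma adjusted p = 0.636). LHCB1.3, the most abundant copy, had 23937 and 24814 TPM in coi1 and 17446 TPM in WT. Their coi1 values were above WT in both libraries, and the summed level of the list was 105000 and 118000 TPM in coi1 and 104000 TPM in WT.

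Of 12 measured genes of auxin and tryptophan synthesis 1 was at least 2-fold higher (0.678% of all genes). Of 19 of auxin response and transport 2 were, IAA1 and IAA29. In the first list limma called 0 and in the second 1, as higher (0.0405% of all genes). At an unadjusted p below 0.05 the limma counts were 3 and 5, against 1608 of all 19757 genes. TAA1, the aminotransferase of auxin synthesis, had 28.5 and 25.9 TPM in coi1 and 9.30 TPM in WT (1.45 ± 0.49, SE; limma adjusted p = 0.399), and IAA29 had 3.46 and 8.97 TPM in coi1 and 0.71 TPM in WT (limma adjusted p = 0.266). IAA19 had 35.9 and 10.5 TPM in coi1 and 8.22 TPM in WT, a difference carried by replicate 1. ASA1, which makes anthranilate for tryptophan and auxin, had 20.5 and 19.4 TPM in coi1 and 25.0 TPM in WT (−0.31 ± 0.40; limma adjusted p = 0.931). WOX11, which founds roots on explants, was listed at 0 in all 3 libraries, and 8 of the 10 root founder genes were below 1 TPM in each.

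Of 239 genes of at least 500 TPM in WT, 12 were at least 2-fold lower in coi1 (5.02%, against 1.90% of all genes), and limma called 1 of them, LOX2. The group was picked after the values had been seen and by the WT level, which enters the difference, so nothing is read from this share. LURP1, named for its response to a downy mildew, had 49.7 and 34.4 TPM in coi1 and 662 TPM in WT (−3.97 ± 1.07, SE; limma adjusted p = 0.229). ECS1 had 1274 and 1033 TPM in coi1 and 5130 TPM in WT (limma adjusted p = 0.413), and PCC1, controlled by pathogens and the clock, had 616 and 495 TPM in coi1 and 2096 TPM in WT (limma adjusted p = 0.885). ACD6, an ankyrin protein of defence, had 249 and 142 TPM in coi1 and 642 TPM in WT (limma adjusted p = 0.707). In each, both coi1 libraries were below WT. Of 16 measured salicylic acid genes 2 were at least 2-fold lower (1.90% of all genes), LURP1 and WRKY38. WRKY38, a defence regulator, fell by 1.63 ± 0.17 (SE) on the log2 scale, with 0.12 and 0.27 TPM in coi1 and 2.68 TPM in WT (limma adjusted p = 0.00224). PR2 had 0.70 and 0.67 TPM in coi1 and 0.47 TPM in WT, and EDS1, an immune regulator, had 92.2 and 13.4 TPM in coi1 and 24.7 TPM in WT.

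Some genes were further below WT in coi1 at t0 than on average later. AT1G59710, encoding an actin cross-linking protein, had 17.37 and 16.16 TPM in coi1 and 64.1 TPM in WT at t0 (−1.87 ± 0.16, SE; limma adjusted p = 0.000628), and −0.06 ± 0.12 at the later times (limma adjusted p = 0.763). AT1G17430, a hydrolase, had 11.8 and 8.92 TPM in coi1 and 47.0 TPM in WT at t0 (limma adjusted p = 0.00919). It was still lower at 10 min, with 6.84 and 5.58 TPM in coi1 and 20.2 TPM in WT, and its later mean difference of −0.33 did not pass limma (adjusted p = 0.293). AT1G72180, a leucine-rich receptor-like kinase, had 17.1 and 16.7 TPM in coi1 and 47.8 TPM in WT at t0 (limma adjusted p = 0.0108), and its later mean difference was 0.09 (limma adjusted p = 0.853). AGP7, an arabinogalactan protein of the wall, had 4.39 and 3.34 TPM in coi1 and 32.1 TPM in WT at t0, and 69.5 and 62.3 TPM in coi1 and 8.84 TPM in WT at 2 h. BEE1, a brassinosteroid-induced factor, had 3.02 and 4.92 TPM in coi1 and 11.5 TPM in WT at t0. BEE1 was higher in coi1 later (1.24 ± 0.20, limma adjusted p = 0.00157). Neither AGP7 nor BEE1 was called by limma at t0. The contrast of t0 with the later mean was called for each of these 5 genes. They were picked by that call, so it is not a separate result.

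The later libraries share no sample with t0 and so give a separate reading of these differences. Of the 375 genes at least 2-fold lower at t0, 124 were so at 10 min (33.1%, against 2.13% of all genes), 119 at 30 min (31.7%, against 3.36%), 174 at 1 h (46.4%, against 9.57%) and 144 at 2 h (38.4%, against 8.65%). The number was 91 at 4 h (24.3%, against 2.68%), 73 at 8 h (19.5%, against 1.35%) and 62 at 12 h (16.5%, against 1.29%). The share thus stayed above that of all genes at each time. At none of them were 121 of the 375 at least 2-fold lower (32.3%, against 81.8% of all genes). Some went the other way. At least 2-fold higher in coi1 were 3 of the 375 at 10 min (1.06% of all genes) and 20 at 30 min (2.00%). That number was 15 at 1 h (5.03%), 22 at 2 h (5.32%) and 22 at 4 h (2.01%). It was 13 at 8 h (0.871%) and 6 at 12 h (0.415%). Whether these genes vary more than others in both directions was not tested. Of the 134 higher genes, 37 were higher at 10 min (27.6%, against 1.06%), 24 at 30 min (17.9%, against 2.00%), 44 at 1 h (32.8%, against 5.03%) and 55 at 2 h (41.0%, against 5.32%). At 4 h 18 were higher (13.4%, against 2.01%) and 16 lower (2.68% of all genes). At 8 h 13 were higher (9.70%, against 0.871%) and 6 lower (1.35% of all genes). At 12 h 6 were higher (4.48%, against 0.415%) and 14 lower (1.29% of all genes). Earlier, 5 of the 134 were lower at 10 min, 4 at 30 min, 7 at 1 h and 8 at 2 h. The additive fit called 126 of the 375 lower later (33.6%, against 6.50%) and 33 of the 134 higher (24.6%, against 3.64%). It called 7 of the 375 higher and 0 of the 134 lower. Its own calls leaned on both sets of coi1 libraries: 1284 genes were lower and 720 higher with both, 16 and 5 without replicate 1, and 84 and 16 without replicate 2. All 17 jasmonate genes and all 12 aliphatic glucosinolate genes that were lower at t0 were among its lower calls. The fit took the 2 coi1 libraries of a time as independent samples beside 1 WT library. A departure at 1 time that both libraries share is thus counted for each, and its p-values may be too small.

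In all, 0 of the 134 genes were at least 2-fold higher at every one of the 8 times (0.0101% of all genes at the 7 later times). Lower at every time were 25 of the 375 (6.67%, against 0.152% of all genes at the 7 later times). The protein-coding genes among these that also met both limma fits and 10 TPM numbered 14, and the 8 with the widest smallest gap were MBP1, VSP2, AT1G52000, BGLU18, LOX2, AOC1, AT1G12050 and TSA1. AT1G52000, a mannose-binding lectin, had 0.68 and 0.83 TPM in coi1 and 37.5 TPM in WT at t0 (−4.46 ± 0.52, SE; limma adjusted p = 0.00438). AT1G12050, fumarylacetoacetase of tyrosine breakdown, had 3.58 and 3.85 TPM in coi1 and 27.9 TPM in WT (−2.62 ± 0.17; limma adjusted p = 5.66e-05). No gene had at least 5 TPM in all libraries of one genotype and at most 0.1 TPM in all of the other.

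Over the later times the aliphatic glucosinolate list kept a median difference below 0 and did not narrow steadily. The median of its 18 members was −2.34 at t0, −1.93 at 10 min, −2.47 at 30 min, −0.96 at 1 h, −2.95 at 2 h, −1.10 at 4 h, −0.79 at 8 h and −0.85 at 12 h, lowest at 2 h and nearest to 0 at 8 h. BCAT4 had 8.57 and 4.56 TPM in coi1 and 173 TPM in WT at 2 h, and 45.7 and 65.7 TPM in coi1 and 148 TPM in WT at 12 h. MAM1 had 26.4 and 21.9 TPM in coi1 and 406 TPM in WT at 2 h, and 123 and 158 TPM in coi1 and 329 TPM in WT at 12 h. Both were thus as far or nearly as far from WT at 2 h as at t0, with a difference of −4.58 for BCAT4 (−4.80 at t0) and −4.02 for MAM1 (−4.02 at t0). VSP2 had 0.69 and 0.90 TPM in coi1 and 136 TPM in WT at 12 h. The contrast of t0 with the later mean was called for 0 of the 18 members, among them BCAT4 (−1.61; limma adjusted p = 0.265) and MAM1 (−1.70; limma adjusted p = 0.445).

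**Figure D5:**
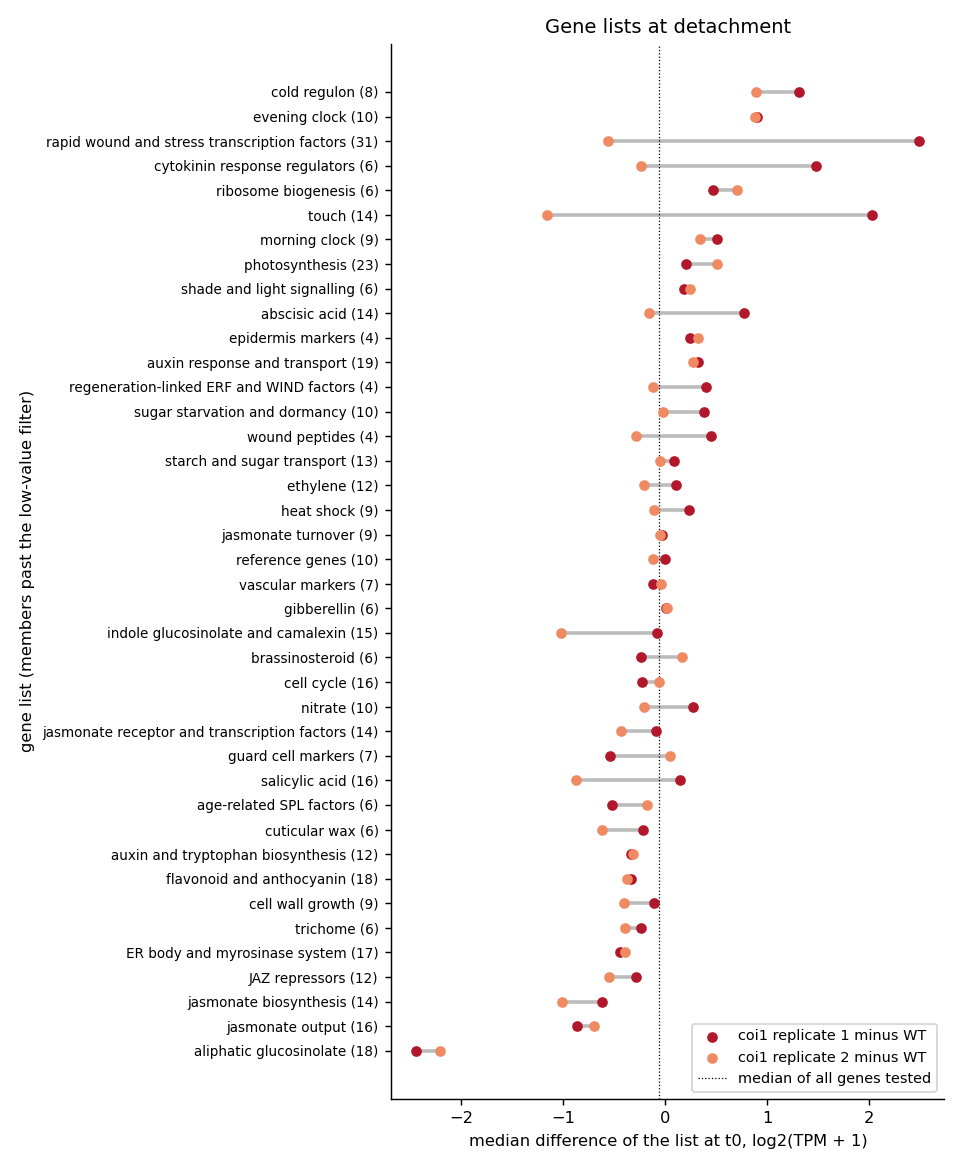
Median difference from WT at detachment, in log2(TPM + 1), of each gene list with at least 4 measured members, given for coi1 replicate 1 and coi1 replicate 2; the dotted line is the median of all genes tested. The aliphatic glucosinolate list is lowest in both libraries (−2.44 and −2.21), and the touch list (2.03 and −1.16) and the wound factor list (2.49 and −0.56) change sign between them.

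Apart from the flavonoid list, few members of the remaining lists were 2-fold different. Cell cycle, ribosome, vascular and guard cell lists had 0 or 1 member at least 2-fold different. The 10 reference genes had a median of −0.06 with 0 members called by limma. Of them, 1 was at an unadjusted p below 0.05 (1608 of all 19757 genes). Trichome genes gave 0 of 6 members at least 2-fold different; TTG2, a WRKY factor of trichomes, had 0.86 and 0.40 TPM in coi1 and 1.13 TPM in WT. In the flavonoid list 3 of 18 were at least 2-fold lower (1.90% of all genes) and 1 was higher (0.678%). Limma called 0, with 6 at an unadjusted p below 0.05 (1608 of all 19757 genes). TT19, a glutathione transferase of anthocyanin transport, was lower at 0.95 and 0.19 TPM in coi1 and 5.04 TPM in WT (limma adjusted p = 0.227). MYBL2, a repressor of that pathway, was higher at 9.92 and 34.7 TPM in coi1 and 3.93 TPM in WT (limma adjusted p = 0.269). The cytokinin response regulators had medians of 1.48 for replicate 1 and −0.24 for replicate 2, and the abscisic acid list 0.77 and −0.16. In these lists 4 of 6 and 7 of 14 members were at least 2-fold higher in replicate 1 than in replicate 2 (7.30% of all genes).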

How the data were processed

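RNA of whole leaf blades was sequenced per the labels. RSEM 1.3.2, STAR 2.7.2b, the trimmer Trim Galore 0.5.0 and build TAIR10 are named in the submitters' processing notes; parameters, annotation and strand setting are not given in the sources used here. The deposited values are TPM per gene for 37686 loci, scaled by the authors to 1000000 per library, so depth and counting precision are unknown. The 24 columns that matched a label were used, and 8 WT columns that matched none were not used. Names came from a TAIR10.1 annotation that held 37390 of the loci; its genome gave the promoter windows.

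Values were analysed as log2(TPM + 1) on genes of at least 1 TPM in at least 2 libraries, with R 4.3.3, limma 3.58.1 (empirical Bayes with trend, Benjamini-Hochberg adjustment over all genes tested, threshold 0.05) and Python 3.11.15. The t0 fit had 8 residual degrees of freedom. The additive fit of later times had 13, with each coi1 library taken as an independent sample. The scripts were tested on simulated data. Named genes were fixed ones (COI1, VSP1, VSP2, LOX2, JAZ10, JAZ7, MYC2, ERF109, TCH4, ASA1, WOX11), the 15 highest and lowest meeting both rules at 10 TPM (3 higher qualified), the 8 lowest at all times, the 8 that most parted the coi1 libraries each way, and up to 4 members per list; further list members, the genes abundant in WT and the genes lower at t0 only were picked after their values were seen. The 44 lists hold 501 members, 21 matched by locus alone. Members, lists and rules were chosen with earlier results of these data known. Alternatives were another pseudocount, filter, fold and scaling, other spreads, a replicate block, and leaving out libraries.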

Additional observations from a re-analysis of the deposited data

Results flagged for a closer look

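The genotype difference of 31 named genes was not the same at t0 as at the 7 later times, by limma's contrast of the t0 difference with the mean later difference (24 libraries, adjusted over all genes tested). The contrast was chosen after the data had been seen. A rule that required its call and a 2-fold difference at t0 took 14 of the named genes. For those genes the call was set by the choice. Values are differences of differences on the log2(TPM + 1) scale, and no explanation of them was tested.

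For 18 genes the value was positive. The JAZ repressors gave 2.83 for JAZ5 (adjusted p = 0.0248), 2.29 for JAZ7 (adjusted p = 0.00119), 1.85 for JAZ8 (adjusted p = 0.0154) and 1.96 for JAZ13 (adjusted p = 0.00218). Jasmonate turnover genes gave 2.42 for JOX2 (adjusted p = 0.00733), 2.40 for JOX3 (adjusted p = 2.28e-05), 2.7 for JOX4 (adjusted p = 0.000844), 2.21 for CYP94B1 (adjusted p = 0.000289), 1.90 for CYP94B3 (adjusted p = 0.0268) and 1.49 for ST2A (adjusted p = 0.00161). Jasmonate output genes gave 3.25 for VSP1 (adjusted p = 0.0167), 1.60 for JAL35 (adjusted p = 0.00662), 2.42 for TPS04 (adjusted p = 2.28e-05), 1.21 for THI2.1 (adjusted p = 0.00177) and 2.40 for NATA1 (adjusted p = 4.4e-05). DAD1, a lipase of jasmonate synthesis, gave 1.24 (adjusted p = 0.00632), and the ER body gene TSA1 gave 2.18 (adjusted p = 0.00958). All these 17 genes had a later mean difference below 0, and VSP1, JAL35, JOX2 and TSA1 were already lower by at least 1 log2 unit in both coi1 libraries at t0. Of the 17, 13 were below 1 TPM in all 3 t0 libraries, which fixes their t0 difference near 0. PYK10, also of ER bodies, gave 2.50 (adjusted p = 0.00145), with a difference of 1.12 at t0 and −1.38 later.

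For 13 genes the value was negative, so coi1 was lower relative to WT at t0 than later. They were AGP7 at −3.75 (adjusted p = 0.026), AT1G76960 at −3.01 (adjusted p = 0.0279), BEE1 at −2.60 (adjusted p = 0.00444), AT2G47440 at −2.15 (adjusted p = 0.0222) and XTH25 at −2.00 (adjusted p = 0.00648). The others were AT1G59710 at −1.81 (adjusted p = 0.000844), AT1G17430 at −1.76 (adjusted p = 0.0225), AT1G72180 at −1.53 (adjusted p = 0.00714), AT4G32790 at −1.46 (adjusted p = 0.0248), AT5G14450 at −1.46 (adjusted p = 0.00145), AT2G48030 at −1.40 (adjusted p = 0.0258), AT1G22882 at −1.33 (adjusted p = 0.0403) and WRKY38 at −1.24 (adjusted p = 0.0118).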

How the results depend on the processing

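No named gene called at t0 changed direction under any alternative run, whereas counts moved. Of 31 named genes called by limma at t0, 31 kept their call without the 30 min libraries, without a filter or without a trend in the spread, 30 after rescaling by median-of-ratios factors, 26 under a replicate block, 26 of 30 with a filter of 5 TPM, 24 with a pseudocount of 0.1, 23 without replicate 1, 27 without replicate 2, and 0 when the spread came from the t0 pair alone, when limma called 0 and 0 of all genes (1595 at an unadjusted p below 0.05, against 1608 with the spread of all pairs). Of the 88 calls, 45 were among 69 without replicate 1, 66 among 192 without replicate 2 and 82 among 90 after rescaling, which moved the median of all genes, −0.06, to 0.00. Counts below give genes higher, then lower, in coi1.

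For the 2-fold rule (134 and 375), a pseudocount of 0.1 gave 345 and 612, a fold of 4 gave 20 and 88, and leaving out a coi1 library 299 to 1077 and 660 to 949. For limma at t0 (8 and 80), a pseudocount of 0.1 gave 5 and 45, no filter 20 and 212, a filter of 5 TPM 2 and 54, spread without 30 min 62 and 366, and leaving out a library 6 to 100 and 63 to 92. For the later times (720 and 1284), counts were 5 to 16 and 16 to 84 without a coi1 replicate, which leaves 1 library per genotype and time, and 134 and 307 with only 4 h, 8 h and 12 h. In that last setting LHCB2.2 (−0.20), LHCB2.1 (−0.17) and LHCB3 (−0.03) changed sign, and the cause was not tested. List members past 2-fold (26 and 47) were 35 to 97 higher and 64 to 83 lower without a coi1 library. Between the coi1 t0 libraries (1443 and 239), a fold of 4 gave 494 and 44, and a pseudocount of 0.1 gave 512 higher in replicate 2. The contrast of t0 with later times (93 and 54) gave 18 and 23 with a pseudocount of 0.1, 355 and 189 with no filter, 44 and 38 with 5 TPM, 154 and 242 without 30 min, and 70 to 202 and 67 to 75 without a coi1 library.

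Replicate numbers do not pair the genotypes, since WT has 1 library per time. With a replicate block the counts were 4 and 60 at t0 and 170 and 403 later, and 60 of the 64 t0 calls were among the 88. Read depth is unknown, so counting error could not be set against any low value.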

Other observations

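Several abundant or strongly lower genes belonged to no list. AT2G25510, of no named function in the annotation used, had 738 and 408 TPM in coi1 and 4101 TPM in WT at t0 (limma adjusted p = 0.35), and AT5G42530 had 1151 and 613 TPM in coi1 and 4571 TPM in WT (limma adjusted p = 0.357). BGLU11, a beta-glucosidase, had 1.42 and 0.76 TPM in coi1 and 25.0 TPM in WT (limma adjusted p = 0.0492, a call lost in 7 of 10 alternatives). Both coi1 libraries lay well below WT for all of these. GASA1, a gibberellin-regulated peptide, had 55.2 and 47.4 TPM in coi1 and 174 TPM in WT (limma adjusted p = 0.714). DRM1, a dormancy-associated gene, was above WT in both coi1 libraries, with 390 and 644 TPM in coi1 and 192 TPM in WT (limma adjusted p = 0.904).

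Of the 75 genes that met both rules as lower, 63 were protein-coding, and 9 were listed at 0 in both coi1 libraries. The genes at least 2-fold lower made up 2.21% of those tested on chromosome 2, which carries COI1, and 1.71% to 2.14% on chromosomes 1, 3, 4 and 5. In the organelles they were 5 of 65 chloroplast genes (7.69%) and 0 of 14 mitochondrial genes.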
